A study of Mus musculus with 15 samples.

Results

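Neural stem and progenitor cells that carry a Kat6b transgene were compared with wild-type cells of the same mixed FvB/BalbC background, 6 libraries against 2, which are 8 of the 15 libraries of the series. Libraries were assigned by the genotype field of their labels, Kat6b Tg or WT. Cells were taken from the mouse dorsal telencephalon at E12.5 and cultured as neurospheres, floating colonies fed with EGF and FGF, and each library carries 1 embryo number. The other 7 libraries are wild-type and Kat6b knockout cells on C57Bl/6, and they enter here only through the shared estimate of the spread and where named. Both wild types (embryos 4 and 5) and transgenic replicates 1 and 2 (embryos 2 and 3) are from litter 844. Transgenic replicates 3, 4, 5 and 6 (embryos 1, 8, 4 and 10) are from litter 873, which holds no wild type, so litter and genotype are only partly separable. The series design states that the transgenic animals were kept on this mixed background because they were not viable inbred. The promoter, copy number and place of integration of the transgene were not given in the sources used here.

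Labels conflict in 3 places that bear on the values of this comparison. The titles of all 6 transgenic samples call them Kat6b knockouts, whereas the genotype field and the design call them transgenic, and the genotype field was followed. The count columns of transgenic replicates 5 and 6 are headed as FvB wild types 3 and 4, and both were again kept as transgenic. In addition, wild-type replicate 2 carries the same litter and embryo numbers as a wild-type C57Bl/6 library. Where results rest on transgenic replicates 5 and 6, values without them are given.

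KAT6B is a histone acetyltransferase of the MYST family, also known as MORF or Querkopf, and works in a complex with a BRPF scaffold protein, an ING reader protein and MEAF6. Its close paralog KAT6A shares these partners. KAT6B is known for its role in the developing cerebral cortex and in adult neural stem cells, and mutations of the human gene cause syndromes with intellectual disability. Neurospheres in EGF and FGF hold stem cells and dividing progenitors, with some cells on the way to astrocytes, oligodendrocytes or neurons.

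Libraries of this comparison held 12336303 to 41746720 counts over named genes, the lowest total being that of transgenic replicate 4. Levels are CPM, counts scaled by library size and TMM factor. The 2 wild-type libraries, from different embryos by their labels, were near-identical, with a biological coefficient of variation between them of 0.0316 (the spread of a gene's level beyond counting noise, as a fraction of that level). Transgenic replicates 1, 2 and 3 were also close to each other, at 0.0415, 0.0503 and 0.0338 for their 3 pairs, although replicate 3 is from the other litter. All other pairs of transgenic libraries lay between 0.135 and 0.271. Counts of every pair still differed by more than sampling noise, which does not show that they are separate cultures. Each library was kept as 1 replicate by its labels, and the p-values, which treat near-identical libraries as independent, are too small if they are not. Neural markers were present in all 8 libraries, with Fabp7 between 2130.3 and 4660.3 CPM and Sox2 between 349 and 684 CPM. Of 39 HOX genes, which mark regions behind the forebrain, 33 had no count in any of the 8 libraries and none reached 1 CPM. Of 11 microglia markers 6 had no count in any of them, and none reached 1 CPM.

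Kat6b (gene identifier 54169, chromosome 14, 21499216 to 21672478 in GRCm38, the assembly of mm10) was the check of the labels. It stood at 54.4 and 51.9 CPM in the wild types and at 268, 265, 266, 229, 139.6 and 289 CPM in transgenic replicates 1 to 6. Every transgenic library lay above both wild types, and replicate 5, one of the 2 libraries headed as wild type, was the lowest of them. The ratio of the means was 4.57, and 4.84 without replicates 5 and 6. The log2 fold change was 2.19 ± 0.21 (SE; adjusted p = 2.38e-04, edgeR's quasi-likelihood F-test, Benjamini-Hochberg adjusted over 15261 genes). Within litter 844 it was 2.31. The exact two-sided permutation test over the 28 splits of 2 and 6 libraries gave p = 0.0357, the smallest it can give.

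The gene that follows Kat6b on chromosome 14 was higher too. Dupd1 encodes a dual-specificity phosphatase and starts 4087 bp past the annotated end of Kat6b. It had 2 counts in the wild types together and 288 in the transgenic libraries, a ratio of 38.7 with an exact 95% interval of 10.6 to 320.9, which covers counting error only. In CPM the wild types had 0 and 0.0911 and the transgenic libraries 1.97, 1.86, 1.76, 2.45, 0.667 and 2.26, again with replicate 5 lowest (adjusted p = 0.0173). Counts were given for 9 other genes within 0.5 Mb of Kat6b, of which 7 were tested and 0 called (1.85% of all genes were called). Among them Samd8, a sphingolipid enzyme gene, had 204 and 194 CPM in the wild types and 126, 185 and 201 CPM as the lowest, median and highest transgenic value, and replicates 5 and 6 were its lowest at 126 and 130.5 CPM. In a list of chromosome 14 neighbours that reaches farther, 14 were tested, with Dupd1 called higher and Kcnma1 lower. All transgenic libraries lay above both wild types in 2 of the 14 and below both in 2 (7.97% and 8.01% of all genes).

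Genes of the KAT6 complexes other than Kat6b did not pass the test. Of 14 genes for KAT6 proteins and their partners or relatives, Kat6b was the 1 called gene, and the median of the 14 was 0.03. The paralog Kat6a had 305 and 305 CPM in the wild types and a median of 315 CPM in transgenic libraries, which ran from 285 to 338 (log2 fold change 0.04 ± 0.08, adjusted p = 0.788, edgeR). Of 26 other acetyltransferases and deacetylases 0 were called. As 1.85% of all genes were called, 0 in a list of this size does not set it apart. Of 26 Polycomb and Trithorax genes 1 was called, Pcgf5, a subunit of a Polycomb repressive complex, which fell from 18.1 and 18.3 CPM to a median of 12.7 CPM (log2 fold change -0.57 ± 0.12, adjusted p = 0.0309).

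**Figure D1:**
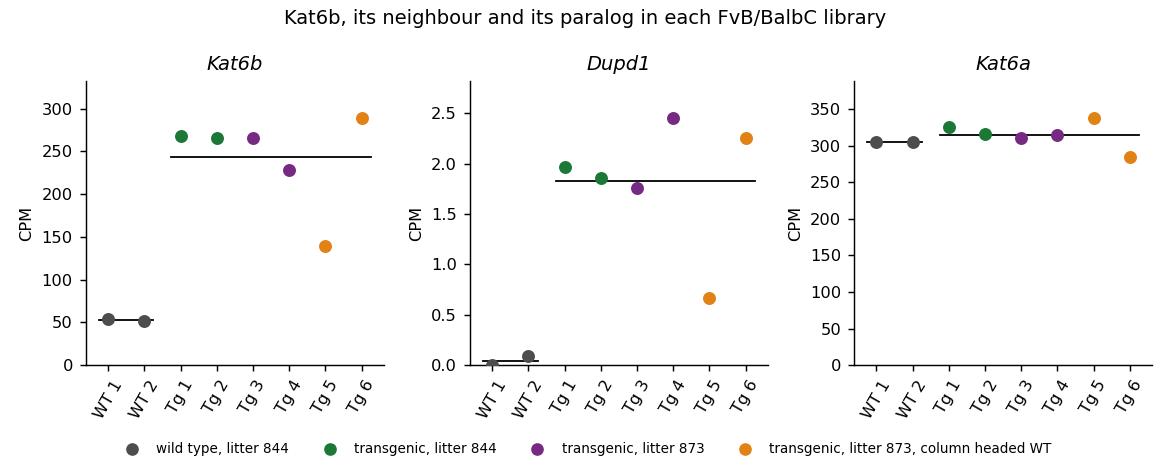
Points give the CPM of Kat6b, its neighbour Dupd1 and its paralog Kat6a in each of the 2 wild-type (WT) and 6 transgenic (Tg) libraries, coloured by litter and by the heading of the count column, and horizontal lines are group means. Every transgenic library lies above both wild types for Kat6b and Dupd1, replicate 5 being the lowest for both, while the groups overlap for Kat6a.

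Across all genes, 283 of 15261 tested (1.85%) were called at an adjusted p under 0.05, 105 higher (0.688%) and 178 lower (1.17%) with the transgene. Of these, 48 rose and 87 fell by more than 2-fold. The median log2 fold change of all genes was 0.01. In 280 of the 283 called genes no transgenic library overlapped a wild type, against 2439 of all genes tested (16%; 7.97% higher and 8.01% lower). The number of calls depended on which libraries were used. Without replicates 5 and 6, 216 genes were higher (1.42%) and 422 lower (2.77%), and 265 of the 283 were called again. Litter 844 alone, where 2 near-identical libraries stand on each side, gave 2329 higher and 2375 lower. With litter as a covariate, a fit of the 8 FvB/BalbC libraries only, edgeR called 0 genes (1511 at an unadjusted p under 0.05). The same 8 libraries without that covariate gave 3 higher and 7 lower (1842 at an unadjusted p under 0.05). With near-identical libraries of every group summed into 1, C57Bl/6 included, edgeR called 0 genes (471 at an unadjusted p under 0.05). Leaving out either wild type left 2 genes higher, Kat6b and Adamts10, and 0 lower, so that every count of lower genes given for a list became 0. Without transgenic replicate 1, 2 or 3 the counts were 23, 21 and 29 higher and 36, 41 and 59 lower. Without replicate 4 they were 963 and 800, and without replicate 5 they were 216 and 390. Every called gene that could be tested kept its direction under each of these settings, a direction that shared libraries help to fix.

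Replicate 4 lay nearest to the wild types and replicate 6 farthest from them. Among the 283 called genes, replicate 4 was the transgenic library closest to the wild-type mean in 166 (58.7%), against 29.0% of all genes tested. Replicate 6 was the farthest in 158 (55.8%), against 37.0% of all genes. Replicate 5 was the nearest in 74 called genes (26.1%), against 16.4% of all genes. It was the farthest in 28 (9.89%), against 26.0% of all genes. Replicates 4, 5 and 6 had 229, 139.6 and 289 CPM of Kat6b, and the part of this level in their positions was not tested.

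**Figure D2:**
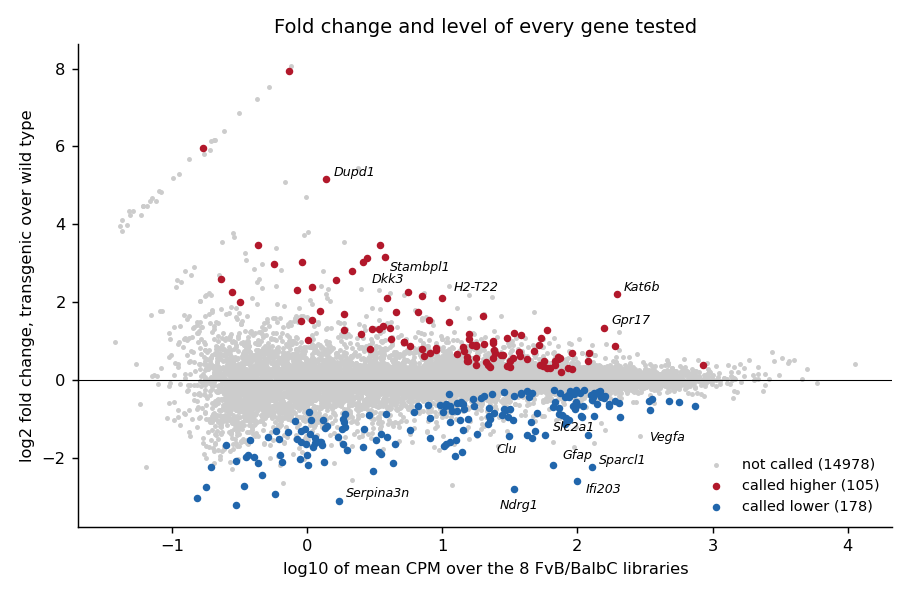
Each point is 1 of the 15261 genes tested, with its log10 mean CPM over the 8 libraries on the x axis and its log2 fold change, transgenic over wild type, on the y axis; red and blue mark the 105 genes called higher and the 178 called lower. The straight line of points at the upper left are genes with no wild-type count, whose fitted fold change depends on the prior count and is no measured size.

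Among genes of at least 5 CPM whose groups did not overlap, the 12 largest rises included a WNT modulator, a deubiquitinase and 3 genes that oligodendrocyte precursors express. Values of a gene are given as the 2 wild types, then the lowest, the median and the highest of the 6 transgenic libraries. Dkk3, a secreted protein of the Dickkopf family of WNT modulators, had 1.58 and 1.37 CPM against 2.14, 7.36 and 10.1 CPM. It rose by 2.27 ± 0.41 on the log2 scale (adjusted p = 0.0199), with replicate 4 the lowest transgenic library and the wild types below all 6. Stambpl1, a deubiquitinase gene, had 2.02 and 1.91 CPM against 6.68, 8.02 and 14.1 CPM and rose by 2.16 ± 0.27 (adjusted p = 0.002705). Replicate 5 was its highest library, and the fold change without replicates 5 and 6 was 2.01. Dach1, a transcriptional cofactor of the dachshund family, had 2.86 and 2.05 CPM against 3.56, 8.63 and 10.4 CPM, a rise of 1.74 ± 0.32 (adjusted p = 0.0214). Fgf12, an intracellular FGF homologous factor that binds sodium channels, went from 5.56 and 4.15 CPM to 7.12, 12.7 and 20.2 CPM. That was a rise of 1.47 ± 0.31 on the log2 scale (adjusted p = 0.0335), and replicate 6 was the highest. Inava had 7.98 and 8.43 CPM against 9.58, 18.8 and 23.8 CPM, and Gstt1, a glutathione transferase gene, had 18.8 and 21.6 CPM against 26.8, 49.3 and 63.1 CPM. Their log2 fold changes were 1.17 ± 0.26 and 1.16 ± 0.27 (adjusted p = 0.0392 and 0.0425), and in both replicate 4 was the transgenic library next to the wild types.

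The 12 largest falls held genes of hypoxia, of astrocytes and of the extracellular matrix. Ndrg1, a gene induced by hypoxia, had 94.2 and 93.1 CPM in the wild types and 2.14, 12.6 and 27.3 CPM in the transgenic libraries, where replicate 6 was the lowest and replicate 4 the highest. The log2 fold change was -2.80 ± 0.55 (adjusted p = 0.0265), and within litter 844 it was -3.12. Loxl2, a matrix cross-linking enzyme, had 26.5 and 28.9 CPM against 2.33, 6.15 and 13.5 CPM and fell by 1.95 ± 0.45 (adjusted p = 0.0423). Scd4, a stearoyl-CoA desaturase gene, had 27.4 and 34.2 CPM against 4.52, 7.78 and 12.54 CPM and fell by 1.87 ± 0.30 (adjusted p = 0.00994). Here replicates 4, 5 and 6 all lay below replicates 1 to 3. Angpt1, a ligand of the TIE2 receptor of blood vessels, had 24.3 and 25.2 CPM against 4.01, 8.79 and 11.97 CPM and fell by 1.56 ± 0.26 (adjusted p = 0.0141). Padi2, a peptidylarginine deiminase that citrullinates proteins, had 21.3 and 24.8 CPM against 1.97, 8.35 and 9.96 CPM (log2 fold change -1.61 ± 0.34, adjusted p = 0.0309). In Padi2 the 5 other transgenic libraries lay close together and replicate 6 stood apart below them. Mfap4, a microfibril-associated protein, went from 14.6 and 16.6 CPM to 4.297, 5.76 and 6.59 CPM and fell by 1.49 ± 0.20 (adjusted p = 0.00505). Its 6 transgenic libraries lay within a narrow range, none of them above 6.59 CPM.

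**Figure D3:**
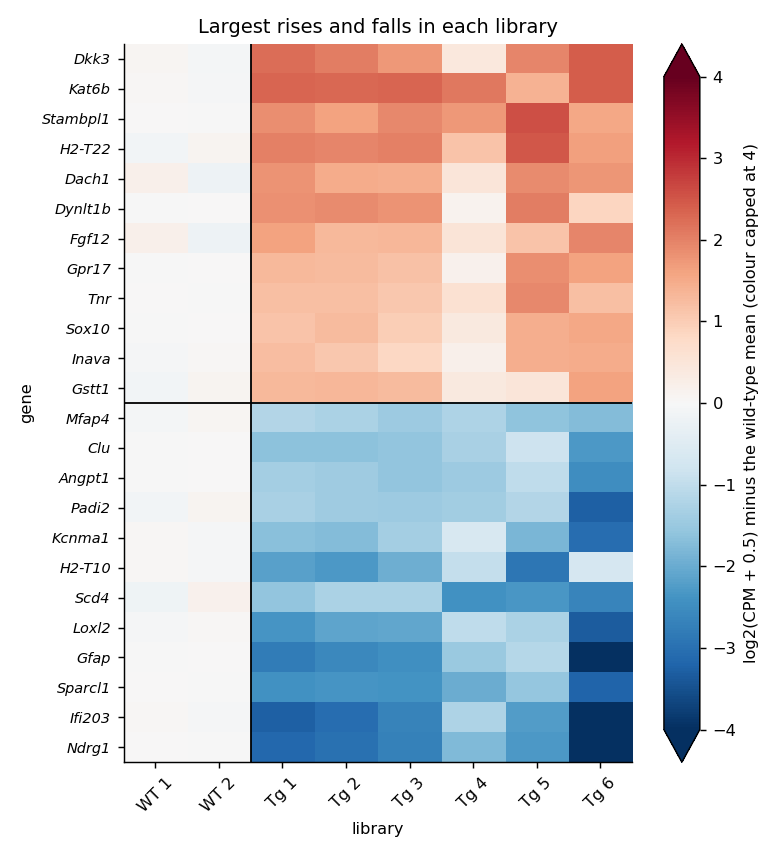
Rows are the 12 largest rises and 12 largest falls, columns the 2 wild-type and 6 transgenic libraries, and colour is the log2(CPM + 0.5) of a library minus the wild-type mean, capped at 4. Replicate 4 is the palest transgenic column for most rises, and replicate 6 the darkest for Ndrg1 and Gfap.

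Genes of glucose uptake and glycolysis were lower with the transgene. Of 27 genes tested, 11 were called lower and 0 higher, with a median log2 fold change of -0.55 against 0.01 for all genes. In 21 of the 27 all transgenic libraries lay below both wild types, against 8.01% of all genes in that direction. Slc2a1, the glucose transporter GLUT1, had 107 and 111 CPM against 21.9, 36.8 and 64.9 CPM. It fell by 1.42 ± 0.27 on the log2 scale (adjusted p = 0.0243). Pfkfb3, whose product makes the activator of phosphofructokinase, had 134 and 127 CPM against 37.2, 66.8 and 93.96 CPM and fell by 0.98 ± 0.20 (adjusted p = 0.0283). Farther down the pathway the changes were smaller. Pgk1, phosphoglycerate kinase, had 130.04 and 144 CPM against 70.2, 88.4 and 108 CPM and fell by 0.65 ± 0.13 (adjusted p = 0.0263). Pgam1, phosphoglycerate mutase, had 167 and 162 CPM against 97.5, 116 and 131 CPM and fell by 0.52 ± 0.10 (adjusted p = 0.0243). The abundant Pkm and Aldoa were not called, at log2 fold changes of -0.46 ± 0.11 (adjusted p = 0.0521) and -0.38 ± 0.10 (adjusted p = 0.0628). Gbe1, the glycogen branching enzyme, had 90.3 and 86.2 CPM against 23.2, 32.3 and 48.4 CPM and fell by 1.32 ± 0.24 (adjusted p = 0.0221). Ppp1r3c, which targets a phosphatase to glycogen and was named after its values were seen, had 329.5 and 320.3 CPM against 135, 164 and 195 CPM and fell by 0.97 ± 0.21 (adjusted p = 0.0338).

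Other hypoxia-responsive genes followed the same direction. Of 30 such genes outside glycolysis, 10 were called lower (1.17% of all genes were) and 0 higher, and their median was -0.65. Higd1a, a mitochondrial protein induced by hypoxia, had 109 and 112 CPM against 48.98, 58.2 and 84.3 CPM and fell by 0.88 ± 0.17 (adjusted p = 0.0243). Fam162a had 173 and 169.6 CPM against 63.6, 83.8 and 129 CPM and fell by 0.96 ± 0.19 (adjusted p = 0.0278). Ak4, a mitochondrial adenylate kinase, had 125 and 131 CPM against 66.5, 79.7 and 106 CPM, a log2 fold change of -0.67 ± 0.14 (adjusted p = 0.0309). Kdm3a, a histone demethylase that hypoxia induces, had the smallest fall of the called genes named here, from 168 and 173 CPM to 134, 139.9 and 147 CPM (log2 fold change -0.28 ± 0.05, adjusted p = 0.0247). Vegfa, the most abundant of the 30, had 557 and 541 CPM against 66.7, 177 and 392 CPM. Its groups did not overlap, but the transgenic libraries were spread from 66.7 CPM in replicate 6 to 392 CPM in replicate 4, and it was not called (log2 fold change -1.44 ± 0.46, adjusted p = 0.112). Hif1a, which encodes the oxygen-regulated subunit of the hypoxia-inducible factor, had 262 and 247 CPM against 219, 273 and 295 CPM and was not called (adjusted p = 0.698); that protein is regulated largely by its stability.

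The glycolysis and hypoxia genes shared one order of libraries. In all 21 called genes of both lists replicate 4 was the transgenic library nearest to the wild types, and in 18 replicate 6 was the farthest. As the mean of log2(CPM + 1) over the 27 glycolysis genes the wild types stood at 7.54 and 7.55, replicate 4 at 7.25, replicate 5 at 7.01, replicate 3 at 6.79, replicate 2 at 6.74, replicate 1 at 6.63 and replicate 6 at 6.31. The order over the 30 hypoxia genes was the same, from 5.59 in replicate 4 to 4.72 in replicate 6, with the wild types at 6.02 in both. Without replicates 5 and 6, 16 glycolysis and 16 hypoxia genes were called lower and 0 higher (2.77% and 1.42% of all genes). Within litter 844 the medians were -0.67 and -0.78. There 23 and 24 were called lower and 2 and 0 higher (16.8% and 16.4% of all genes). Leaving out replicate 1 left 0 of either list called, replicate 2 left 2 and 0, and replicate 3 left 4 and 1. Leaving out replicate 4 gave 22 and 18, where 800 of all 15237 genes tested were lower. Leaving out replicate 5 gave 17 and 15, where 390 of 15282 were lower. The density of the spheres and the oxygen in each culture are not recorded in the labels, and their part in this result was not tested.

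Nuclear genes for subunits of the respiratory chain and ATP synthase lay slightly higher, without a call. Of 79 genes, 73 had a fold change above 0, the median was 0.16, and 0 were called (0.688% of all genes were called higher). All transgenic libraries lay above both wild types in 22 of the 79 and below both in 2 (7.97% and 8.01% of all genes). In litter 844 alone 38 were called higher and 0 lower (16.4% and 16.8% of all genes). Leaving out replicate 4, 12 of the 79 were called higher, where 963 of all 15237 genes tested were. Their mean log2(CPM + 1) was 6.22 and 6.25 in the wild types and ran from 6.25 in replicate 4 to 6.54 in replicate 6.

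**Figure D4:**
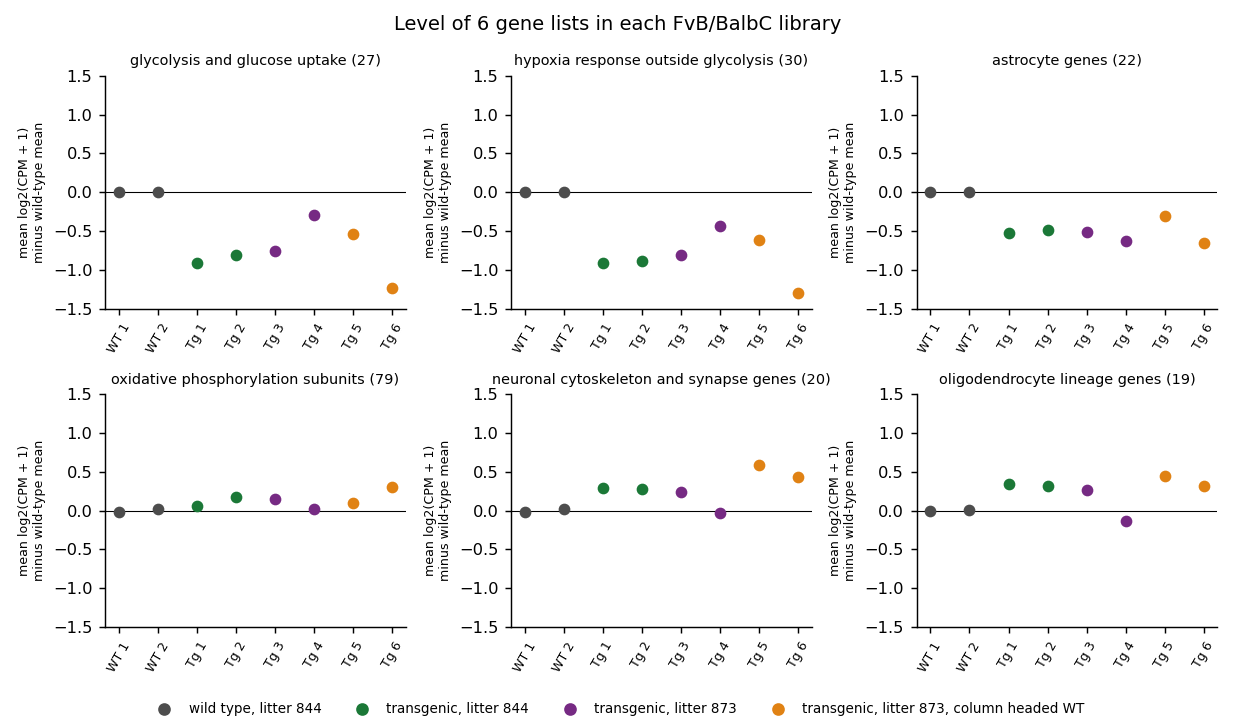
Each panel gives, for 1 gene list (number of genes in brackets), the mean log2(CPM + 1) of each library minus the wild-type mean, coloured by litter and by the heading of the count column. The glycolysis, hypoxia and astrocyte lists lie below 0 in all 6 transgenic libraries, while replicate 4 stands at or below the wild types for the neuronal and oligodendrocyte lists.

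The promoters of 4 called glycolysis and hypoxia genes are shown because hypoxia-inducible factors bind a short core spelled ACGTG or GCGTG. They are the 4 genes of smallest adjusted p whose window held either spelling. Each window is the 250 bases before the first start listed for the gene by RefSeq on GRCm38.p6, written 5′ to 3′ on the gene's strand, with every match on either strand in capitals (the reverse spellings are CACGT and CACGC). The windows lie at chr9:121857797-121858046 (minus strand) for Higd1a, chr19:41911621-41911870 (plus strand) for Pgam1, chr4:119108495-119108744 (plus strand) for Slc2a1 and chr6:71632918-71633167 (minus strand) for Kdm3a.
Higd1a: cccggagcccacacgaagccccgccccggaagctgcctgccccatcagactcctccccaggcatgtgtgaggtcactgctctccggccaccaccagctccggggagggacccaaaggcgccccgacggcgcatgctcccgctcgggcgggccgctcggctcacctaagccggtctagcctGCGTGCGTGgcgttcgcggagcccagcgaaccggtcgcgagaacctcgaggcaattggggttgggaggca
Pgam1: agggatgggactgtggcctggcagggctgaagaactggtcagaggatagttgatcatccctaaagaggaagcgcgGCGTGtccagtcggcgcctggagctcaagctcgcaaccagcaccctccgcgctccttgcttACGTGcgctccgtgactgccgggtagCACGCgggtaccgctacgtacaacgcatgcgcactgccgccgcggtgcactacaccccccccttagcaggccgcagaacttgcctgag
Slc2a1: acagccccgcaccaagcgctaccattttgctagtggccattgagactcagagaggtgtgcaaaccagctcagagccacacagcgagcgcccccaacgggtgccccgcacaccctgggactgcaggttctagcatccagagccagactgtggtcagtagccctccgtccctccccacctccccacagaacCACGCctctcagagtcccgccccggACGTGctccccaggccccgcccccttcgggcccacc
Kdm3a: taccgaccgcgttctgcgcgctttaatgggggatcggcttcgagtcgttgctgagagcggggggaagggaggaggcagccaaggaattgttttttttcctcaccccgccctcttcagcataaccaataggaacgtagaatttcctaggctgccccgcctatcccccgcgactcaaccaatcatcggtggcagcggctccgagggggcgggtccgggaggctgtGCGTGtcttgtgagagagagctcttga

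Promoter windows were found for 17 of the 21 called genes. ACGTG on either strand was in 9 of them (52.9%), against 21.4% of the 11406 tested genes with a window and 16.6% of all 27025 windows. GCGTG was in 9 (52.9%), against 44.9% of tested genes and 28.2% of all windows, and 13 held at least 1 of the spellings (76.5%, against 56% of tested genes). The 9 windows with GCGTG were 2 of 10 glycolysis genes and all 7 of the hypoxia genes with a window. In Slc2a1 the match nearest to the start ends 31 bases before it, and in Kdm3a 22 bases before it. These are matches of letters, and no binding was measured. Uncalled members of the 2 lists were not compared, so the shares do not bear on which members fell.

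Genes of astrocytes fell in part. Of 22 genes, 6 were called lower and 0 higher (1.17% and 0.688% of all genes), with a median of -0.29. Gfap, the intermediate filament of mature astrocytes, had 158 and 159 CPM against 7.87, 27.3 and 71.1 CPM and fell by 2.18 ± 0.51 on the log2 scale (adjusted p = 0.04402). Replicate 6 was the lowest, while replicate 5 was the highest of the transgenic libraries. Sparcl1, a secreted matricellular protein of astrocytes, had 314 and 311 CPM against 33.3, 59.8 and 106 CPM and fell by 2.25 ± 0.40 (adjusted p = 0.0199). Clu, the secreted chaperone clusterin, had 90.1 and 90.3 CPM against 17.96, 29.03 and 50.2 CPM and fell by 1.51 ± 0.23 (adjusted p = 0.00738). The water channel gene Aqp4 had 167 and 161 CPM against 61.03, 88.9 and 103 CPM and fell by 0.93 ± 0.15 (adjusted p = 0.00979). S100b, a calcium-binding protein, had 23.6 and 24.5 CPM against 13.03, 13.98 and 20.1 CPM and fell by 0.68 ± 0.14 (adjusted p = 0.0309). Not all astrocyte genes were lower. The glutamate transporter gene Slc1a3, which radial glia express too, had 2217 and 2120.2 CPM against 2001, 2201 and 2352 CPM and was not called (adjusted p = 0.963). Apoe, an apolipoprotein gene, had 1065 and 1072 CPM against 602, 1074 and 1417 CPM (adjusted p = 0.989). In these bulk libraries fewer cells of a type and less RNA per cell cannot be told apart. Without replicates 5 and 6, 8 of the 22 were called lower and 0 higher (2.77% and 1.42% of all genes). Without any one of replicates 1, 2 and 3 the count of lower genes was 4. Without replicate 4, 8 were lower and 2 higher (800 and 963 of all 15237 genes tested). In litter 844 alone 13 were lower and 4 higher (16.8% and 16.4% of all genes), and the median was -0.36.

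Of 19 oligodendrocyte lineage genes 2 were called higher and 0 lower (0.688% and 1.17% of all genes). Sox10, the transcription factor of oligodendrocyte lineage cells, had 16.99 and 17.7 CPM against 22.7, 40.4 and 51.9 CPM and rose by 1.20 ± 0.23 (adjusted p = 0.0232). Gpr17, a receptor of oligodendrocyte precursors on the way to maturation, had 74.3 and 74.5 CPM against 83.9, 182 and 273 CPM and rose by 1.33 ± 0.32 (adjusted p = 0.0481). In both, replicate 4 lay just above the wild types and the other 5 libraries well above it. Tnr, the matrix protein tenascin-R that these cells also secrete, had 29.2 and 28.3 CPM against 44.3, 66.7 and 111 CPM and rose by 1.27 ± 0.23 (adjusted p = 0.0222). Replicate 5 was far above the rest, and the fold change without replicates 5 and 6 was 1.05. Tnr is not in this list. It was the 1 called of 16 genes of lecticans, tenascins and hyaluronan matrix, whose median was -0.09. The other 17 of the 19 lineage genes were not called and the median was 0.13. All transgenic libraries lay above both wild types in 3 of the 19 and below both in 2 (7.97% and 8.01% of all genes). Without replicates 5 and 6, 2 were called higher and 1 lower (1.42% and 2.77% of all genes). In litter 844 alone 9 were called higher and 4 lower (16.4% and 16.8% of all genes). Olig2, which precursors and dividing progenitors share, had 585 and 592 CPM against 574, 617 and 767 CPM (adjusted p = 0.549).

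Of 20 neuronal genes 3 were called higher and 0 lower (0.688% and 1.17% of all genes), with a median of 0.38. Elavl3, an RNA-binding protein of young neurons, had 26.8 and 27.1 CPM against 32.5, 41.8 and 47.8 CPM and rose by 0.61 ± 0.14 (adjusted p = 0.0392). Syp, the synaptic vesicle protein synaptophysin, had 9.31 and 8.84 CPM against 11.6, 14.1 and 18.6 CPM and rose by 0.66 ± 0.15 (adjusted p = 0.0405). Rbfox3, the neuronal splicing factor known as NeuN, was at 0.443 and 0.273 CPM against 0.554, 2.17 and 3.01 CPM and rose by 2.57 ± 0.60 (adjusted p = 0.0427). The list held 3 genes called higher and 2 lower without replicates 5 and 6 (1.42% and 2.77% of all genes). Without replicate 4 it held 8 and 0 (963 and 800 of all 15237 genes tested). In litter 844 alone it held 9 and 3 (16.4% and 16.8% of all genes). Rbfox3 was no longer called without replicates 5 and 6 (adjusted p = 0.0602). Of 14 proneural and intermediate progenitor genes 1 was called higher and 1 lower, with a median of 0.57; leaving out replicate 4 gave 6 and 1. Neurod1, a bHLH factor of newborn neurons, had 2 counts in the wild types and 90 in the transgenic libraries, a ratio of 12.1 with an exact 95% interval of 3.25 to 101.3 for counting error (adjusted p = 0.0392). Hes6 had 149 and 158 CPM against 107, 115 and 131 CPM and fell by 0.40 ± 0.08 (adjusted p = 0.0243). Replicate 4 stood at the wild-type level here: the neuronal list averaged 3.74 and 3.78 in the wild types, 3.73 in replicate 4 and 4.00 to 4.35 in the other 5 (log2(CPM + 1)).

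Few or no factors of stem cell and forebrain identity passed the test. Of 21 neural stem and radial glia genes 1 was called, Sox1, a SOXB1 factor of neural progenitors, which had 54.01 and 53.1 CPM against 58.7, 68.2 and 70.3 CPM and rose by 0.31 ± 0.07 (adjusted p = 0.0488). Its relative Sox2 had 447 and 405 CPM against 349, 516 and 684 CPM, with replicate 4 below both wild types, and was not called (adjusted p = 0.351). Fabp7, the fatty-acid-binding protein of radial glia, had 2223 and 2174 CPM against 2130.3, 2897 and 4660.3 CPM and was not called (adjusted p = 0.279). Among 12 dorsal telencephalon factors, 11 ventral telencephalon genes and 17 cortical layer factors edgeR called 0 (1.85% of all genes were called). Their medians were 0.29, 0.52 and 0.07. The ventral list averaged 2.03 and 2.02 in the wild types and 2.07 to 2.34 in the 6 transgenic libraries (log2(CPM + 1)), with replicate 4 at 2.07. Means of other lists, such as the WNT pathway and clock genes, also did not overlap between the groups. The dorsal list averaged 4.03 and 4.05 in the wild types, 3.82 in replicate 4 and 4.17 to 4.41 in the other 5. In litter 844 alone, 8 of the 12 dorsal factors were called higher and 1 lower (16.4% and 16.8% of all genes). Of 14 SOX genes the 2 called were Sox1 and Sox10.

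Lists of signalling pathways held between 0 and 2 called members each, where 1.85% of all genes were called. In the WNT pathway 2 of 33 genes were called higher, both for secreted modulators, Dkk3 and Sfrp2. Sfrp2, a secreted Frizzled-related protein, had 14.2 and 13.2 CPM against 20.3, 29.1 and 34.5 CPM and rose by 1.00 ± 0.17 (adjusted p = 0.0141). In the BMP and TGF-beta pathway 1 of 31 genes rose and 1 fell, both encoding ligands. Bmp7 had 31.8 and 31.5 CPM against 44.7, 54.96 and 59.4 CPM and rose by 0.75 ± 0.11 (adjusted p = 0.00699). Tgfb3 had 9.503 and 8.93 CPM against 4.04, 4.77 and 6.75 CPM and fell by 0.84 ± 0.17 (adjusted p = 0.0279). Efnb1, the ligand ephrin-B1, was the 1 called gene among 65 semaphorins, ephrins, netrins, slits and their receptors (1.85% of all genes were called), at 32.1 and 31.8 CPM against 37.6, 47.9 and 53.04 CPM (log2 fold change 0.53 ± 0.11, adjusted p = 0.0309). Igfbp5, an insulin-like growth factor binding protein, was the 1 called of 14 in its list and fell from 509 and 495 CPM to 243, 301 and 369 CPM (log2 fold change -0.77 ± 0.13, adjusted p = 0.0141). Of 25 Notch pathway genes, 10 hedgehog genes and 21 genes of FGF and EGF signalling edgeR called 0.

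Genes of the matrix and the membrane moved in both directions. Of 60 collagens, laminins and integrins 2 were called higher and 3 lower (0.688% and 1.17% of all genes), and the median was -0.19. The counts were 2 and 10 without replicates 5 and 6 (1.42% and 2.77% of all genes). They were 3 and 10 without replicate 4 (963 and 800 of all 15237 genes tested). In litter 844 alone they were 6 and 24 (16.4% and 16.8% of all genes). All transgenic libraries lay above both wild types in 5 of the 60 and below both in 15 (7.97% and 8.01% of all genes). Col5a2 had 133 and 141 CPM against 41.2, 60.6 and 87.4 CPM and fell by 1.14 ± 0.24 (adjusted p = 0.0309), whereas its partner chain Col5a1 had 5.91 and 5.15 CPM against 7.599, 8.23 and 11.4 CPM and rose by 0.70 ± 0.16 (adjusted p = 0.0453). The basement membrane chain Col4a6 had 35.8 and 38.2 CPM against 8.67, 17.7 and 22.2 CPM and fell by 1.14 ± 0.25 (adjusted p = 0.0387). Col6a2 was below 2 CPM in all 8 libraries, at 0.837 and 1.05 CPM against 0.0481, 0.105 and 0.2501 CPM (adjusted p = 0.00505). Col9a1, a chain of the collagen that coats fibrils in cartilage, had 1.28 and 1.003 CPM against 1.82, 4.69 and 7.09 CPM and rose by 2.10 ± 0.49 (adjusted p = 0.0423). Markers of pericytes and fibroblasts summed to 19.7 and 21.8 CPM in the wild types and to 11.3 to 23.0 CPM in the transgenic libraries, and those of endothelium to 6.30 and 6.65 against 3.59 to 5.94 CPM. The part of such cells in the matrix and vessel genes was not tested. Of 57 potassium channel genes 1 was called higher and 3 lower, again where 0.688% and 1.17% of all genes were. Kcnma1, the calcium-activated BK channel, had 22.4 and 21.01 CPM against 2.21, 6.33 and 13.8 CPM and fell by 1.66 ± 0.36 (adjusted p = 0.0357). Kcnip1, an accessory subunit, rose from 1.87 and 1.504 CPM to 2.14, 5.52 and 8.79 CPM (log2 fold change 1.75 ± 0.38, adjusted p = 0.0362). Of 30 glutamate and GABA receptor genes 1 was called, where 1.85% of all genes were. It was Grm3, a metabotropic glutamate receptor gene, with 51.5 and 53.9 CPM against 59.5, 77.2 and 84.6 CPM (log2 fold change 0.49 ± 0.11, adjusted p = 0.0445).

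In the fit of all 15 libraries, the called circadian clock genes and targets of glucocorticoids and of ATF4 were all lower. Of 16 clock genes 5 were called lower (1.17% of all genes were), and the median was -0.18. Without any one of replicates 1, 2 and 3 the count was 1. It was 3 without replicate 6 and 8 without replicate 4, where 175 of 15101 and 800 of 15237 genes tested were lower. Npas2, a partner of BMAL1, had 2.41 and 2.19 CPM against 0.413, 0.665 and 1.25 CPM and fell by 1.63 ± 0.32 (adjusted p = 0.0278). The repressors Bhlhe41 and Bhlhe40 had 19.2 and 18.5 CPM against 7.03, 8.36 and 11.9 CPM, and 187 and 192 CPM against 92.8, 118 and 169 CPM. They fell by 1.08 ± 0.20 and 0.63 ± 0.15 (adjusted p = 0.0221 and 0.0492), and Bhlhe40 counts among the hypoxia genes too. Dbp, an output gene of the clock, had 13.9 and 15.04 CPM against 7.52, 8.67 and 12.3 CPM and fell by 0.67 ± 0.15 (adjusted p = 0.0423). Per3 fell from 32.6 and 35.5 CPM to 23.9, 27.5 and 30.1 CPM (log2 fold change -0.32 ± 0.08, adjusted p = 0.04901). Of 11 glucocorticoid-responsive genes and metallothioneins Fkbp5 and Mt1 were called lower. Fkbp5, a co-chaperone of steroid receptors, had 73.7 and 75.3 CPM against 29.96, 33.98 and 47.3 CPM and fell by 1.08 ± 0.13 (adjusted p = 0.00255). Mt1, a metallothionein that astrocytes express, had 246 and 251 CPM against 143, 176 and 186 CPM and fell by 0.54 ± 0.08 (adjusted p = 0.00574). Among 22 ATF4 and serine synthesis genes Slc7a11, the cystine transporter, had 152 and 154 CPM against 78.9, 97.2 and 112 CPM and fell by 0.67 ± 0.13 (adjusted p = 0.0232). Vldlr, a lipoprotein and reelin receptor, had 126 and 133 CPM against 67.7, 84.8 and 107 CPM and fell by 0.57 ± 0.11 (adjusted p = 0.0279). In litter 844 alone the clock, glucocorticoid and ATF4 lists held 8, 5 and 10 genes called lower. They also held 3, 4 and 3 called higher there, where 16.8% of all genes were lower and 16.4% higher.

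Lists of proliferation and of other housekeeping functions held no call by edgeR: 31 DNA replication genes (median -0.15), 25 mitosis genes (-0.02), 16 cyclins and G1 regulators (-0.01), 23 cholesterol synthesis genes (0.12), 12 heat shock genes (0.05), 18 p53 targets (0.15), 13 DNA methylation genes (0.02), 32 imprinted genes (0.08), 36 interferon-inducible genes (-0.16) and 21 immediate early genes (-0.30). With 1.85% of all genes called, 0 calls in lists of these sizes do not set them apart. Of the 23 cholesterol genes, 22 had a fold change above 0. In litter 844 alone, 14 of these 23 were called higher and 0 lower, and 13 of the 21 immediate early genes and 17 of the 31 DNA replication genes were called lower and 0 higher, where 16.4% of all genes were called higher and 16.8% lower. Of the 31 replication genes 29 had a fold change below 0, and 7 were called lower without replicate 4, where 800 of all 15237 genes tested were. In all, 25 of the 45 lists with 10 or more tested genes held at least 1 called gene, and 72 of the 283 called genes were in a list.

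**Figure D5:**
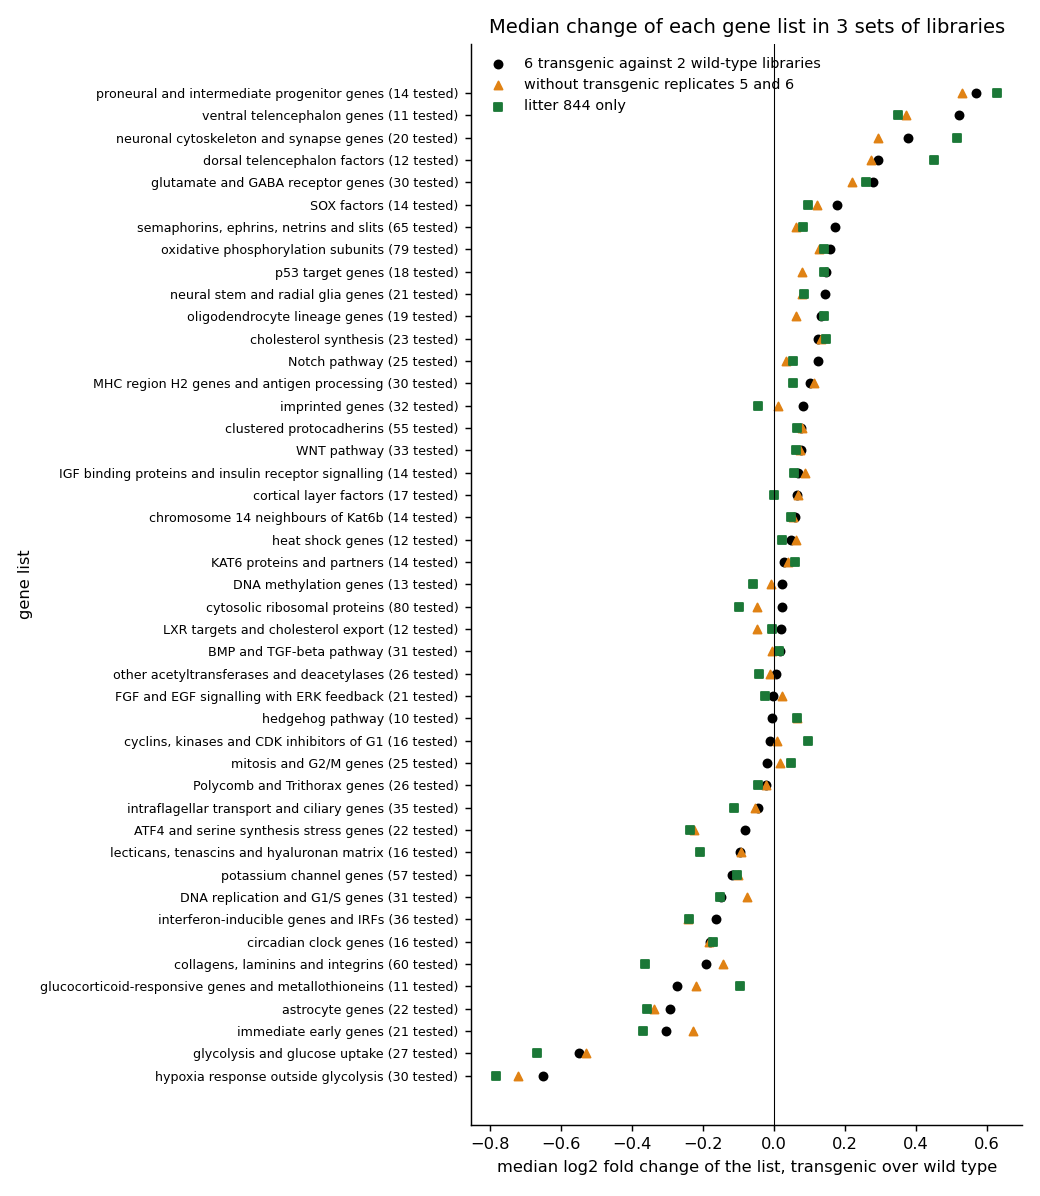
For each gene list with 10 or more genes tested, symbols give the median log2 fold change with all 8 libraries (circles), without transgenic replicates 5 and 6 (triangles) and in litter 844 only (squares). The hypoxia and glycolysis lists are the lowest in all 3, at -0.65 and -0.55 with all libraries, and proneural genes are the highest at 0.57.

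A stretch of chromosome 17 around the MHC, chosen after values were seen, held many calls. Between 28 and 37 Mb, 14 of 208 tested genes were called higher and 9 lower (11.1% together), against 3 and 3 of 553 on the rest of that chromosome (1.08%). Of 30 MHC region genes 4 were higher and 3 lower, and reads of such near-identical copies may be split or dropped between copies. H2-T22, a nonclassical class I gene, had 2.61 and 3.19 CPM against 6.97, 12.9 and 18.6 CPM and rose by 2.10 ± 0.28 (adjusted p = 0.00412). H2-Q6, another class I gene, had 0.443 and 0.638 CPM against 2.96, 5.05 and 6.25 CPM and rose by 3.16 ± 0.40 (adjusted p = 0.002705). H2-T10, also of class I, had 22.01 and 20.6 CPM against 2.42, 4.74 and 13.1 CPM and fell by 1.69 ± 0.40 (adjusted p = 0.0465). Rps28, a ribosomal protein gene, had 24.8 and 26.3 CPM against 5.48, 10.2 and 13.8 CPM and fell by 1.30 ± 0.24 (adjusted p = 0.0232). It was the 1 called among 80 cytosolic ribosomal protein genes. Fkbp5 and Adamts10 lie in the same stretch. Elsewhere on chromosome 17, Dynlt1b, a dynein light chain gene with close copies, had 7.73 and 7.84 CPM against 8.71, 28.6 and 33.4 CPM, with replicates 4 and 6 nearest to the wild types (rise of 1.64 ± 0.38, adjusted p = 0.0419). In the wild-type C57Bl/6 libraries H2-T22 averaged 17.2 CPM and Dynlt1b 62.7 CPM.

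The transgenic libraries differed in how near they lay to wild-type C57Bl/6 cells. Ifi203, an interferon-inducible gene of chromosome 1, had 274 and 251 CPM in the wild types and 26.8, 31.04, 41.02, 110.4, 55.2 and 2.11 CPM in transgenic replicates 1 to 6, against 0.0325 CPM on average in wild-type C57Bl/6 cells. It was called lower (log2 fold change -2.60 ± 0.63, adjusted p = 0.0499). Of 312 genes that differed at least 4-fold between the wild types of both backgrounds, 12 were nearer to C57Bl/6 in replicate 4 (3.85%), and 80, 64 and 56 in replicates 1, 2 and 3. In replicates 5 and 6 it was 142 (45.5%) and 172 (55.1%). Segregating alleles and the transgene cannot be told apart with 2 near-identical wild types from 1 litter.

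Replicates 5 and 6 differed from replicates 1 to 4 in 1569 genes (10.3%), 894 higher and 675 lower by edgeR. Of the 6 largest differences among named genes, 4 were in ribosomal protein genes, a family with processed copies elsewhere in the genome. Rpl29 had 3.41, 5.34, 6.43 and 8.55 CPM in replicates 1 to 4, 121 CPM in replicate 5 and 28.4 CPM in replicate 6, with wild types at 6.696 and 6.74 CPM and 197 CPM on average in wild-type C57Bl/6 cells. Rps2 had 15.7, 14.2, 19.3 and 23.5 CPM in replicates 1 to 4, then 228 and 46.98 CPM, with wild types at 17.3 and 17.7 CPM and 356 CPM in C57Bl/6. Both libraries thus lay between the 2 backgrounds for these genes. Rpl21 had 62.04 and 60.3 CPM in the wild types, 9.28, 9.87, 9.64 and 11.3 CPM in replicates 1 to 4, and 93.5 and 72.1 CPM in replicates 5 and 6. Ly6e, a GPI-anchored surface protein gene, separated otherwise: replicates 1, 2 and 3 had 27.1, 27.6 and 24.1 CPM, while replicates 4, 5 and 6 had 4.43, 4.503 and 6.94 CPM, next to the wild types at 4.87 and 4.06 CPM. None of Rpl29, Rps2, Rpl21 and Ly6e was called between transgenic and wild-type cells with all libraries. Without replicates 5 and 6, Rpl21 was called lower (log2 fold change -2.63) and Ly6e higher (log2 fold change 2.24).

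With the 8 FvB/BalbC libraries fitted alone, edgeR called 10 genes, all among the 283: Kat6b, H2-Q6 and Adamts10 higher, and Fkbp5, Sparcl1, Mfap4, Bgn, Gem, Serpina3n and Ppp1r3c lower. The 5 of these not yet covered by the naming rule were chosen after their values were seen, Ppp1r3c among them. Adamts10, a metalloprotease of microfibrils, had 11.8 and 10.03 CPM against 18.7, 20.2 and 20.6 CPM and rose by 0.88 ± 0.08 (adjusted p = 2.38e-04 with 15 libraries). Its transgenic libraries spanned less than 2 CPM. Serpina3n, a serine protease inhibitor that reactive astrocytes express, had 5.02 and 5.195 CPM against 0.385, 0.595 and 0.753 CPM and fell by 3.11 ± 0.42 (adjusted p = 0.00505). Bgn, the matrix proteoglycan biglycan, had 7.73 and 7.66 CPM against 0.8497, 1.55 and 2.29 CPM and fell by 2.35 ± 0.33 (adjusted p = 0.00528). Gem, a small GTPase gene, had 13.6 and 12.3 CPM against 5.54, 6.61 and 7.69 CPM and fell by 0.99 ± 0.15 (adjusted p = 0.00738). In these 10 genes all 6 transgenic libraries lay on the same side of both wild types. Taking genes called by this fit favours that pattern, which 280 of the 283 called genes also had.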

How the data were processed

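RNA of cultured neural stem and progenitor cells was sequenced as 66 bp paired-end reads. The deposited files hold raw counts per gene, for which bcl2fastq, featureCounts and the build mm10 were used per the submitters' processing notes. Versions, aligner, annotation and strandedness were not given in the sources used here, so genes that overlap another gene, and near-identical copies such as MHC, protocadherin and ribosomal protein genes, are uncertain. The gene length column, deposited by the authors in bases, was not used as a measure. Of the entries, 917 have no gene name and held 0.450% to 0.545% of the counts, and they were left out of totals and tests, leaving 26263 named genes.

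Groups followed the genotype field. All 15 libraries entered 1 edgeR model (edgeR 4.0.16, R 4.3.3; TMM, filterByExpr with a minimum count of 10, glmQLFTest, no covariates), which left 15261 genes and removed 11002. Genes with a Benjamini-Hochberg adjusted p under 0.05 were called. CPM values were computed from the counts with TMM factors, and ± marks the SE of a log2 fold change derived from the F statistic. The script was tested on simulated counts. Coordinates of 96.2% of genes came from RefSeq on GRCm38.p6 by gene identifier. Exact intervals cover counting error only, because PCR copies cannot be told from separate molecules here. Total depth of the 8 FvB/BalbC libraries ran from 12336303 to 41746720 counts, and that of all 15 up to 62819028. Nothing in the labels says that cultures of 1 group were prepared separately, so p-values measure the spread between these samples only.

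Named were Kat6b, Kat6a and Sox2, the 12 largest rises and the 12 largest falls among called genes of at least 5 CPM with no overlap and a proper symbol, up to 5 called and up to 3 abundant uncalled members of each of 55 gene lists, all members of some lists, and up to 6 genes that set transgenic replicates 5 and 6 apart. Any other gene is marked in the text. The members and lists were chosen with earlier results of these data known. Alternatives were other scaling (RLE), no filter, DESeq2 1.42.0, fewer libraries, litter or replicate number in the model, summed near-identical libraries and each library left out.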

Additional observations from a re-analysis of the deposited data

Results flagged for a closer look

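In 9 of the 86 genes named, 1 of the 6 transgenic libraries lay far from the other 5, its gap to the nearest divided by the whole range, exceeding Dixon's 95% critical value. By chance about 1 in 20 groups would be marked so, but Rpl29 and Rps2 below were named because replicates 5 and 6 differed there from the other transgenic libraries, so the number of genes is no measure against chance. Replicate 5, whose count column is headed as a wild type, was that library in 5 genes. It had 14.1 CPM of Stambpl1 against 6.68 to 8.85 in the other 5 transgenic libraries, and 110.6 CPM of Tnr against 44.3 to 66.8. S100b stood at 20.1 CPM there against 13.0 to 15.5. Rpl29 reached 121 CPM against 3.41 to 28.4, and Rps2 reached 228 CPM against 14.2 to 47.0.

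Replicate 6, headed likewise, stood apart with 1.97 CPM of Padi2 against 8.10 to 9.96, and with 767 CPM of Olig2 against 574 to 622. Replicate 4, the shallowest library, had 18.7 CPM of Adamts10 against 19.9 to 20.6, and 808 CPM of Aldoa against 567 to 656. The position of replicate 4 lay toward the wild types in both genes. The causes of these gaps were not tested.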

How the results depend on the processing

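The comparison rests on 2 near-identical wild types, and the numbers of calls moved widely while no called gene changed direction. Genes called higher and lower were 105 and 178; they were 3 and 7 with the 8 FvB/BalbC libraries only, 216 and 422 without transgenic replicates 5 and 6, 1588 and 1160 with replicates 5 and 6 alone, 2329 and 2375 in litter 844 only, 0 and 0 with litter as a covariate, 0 and 0 with near-identical libraries summed, and 354 and 366 with DESeq2. With the replicate block, which pairs libraries by a number that 2 of each group share and that is not stated to pair embryos, they were 3268 and 3192. Leaving out each library in turn gave 2 to 963 higher and 0 to 800 lower, the lowest without either wild type and the highest without transgenic replicate 4. The fits with litter as a covariate and with the replicate block used the 8 FvB/BalbC libraries only. RLE factors and no filter kept both counts within 1.5 times. For replicates 5 and 6 against 1 to 4, the 675 lower genes became 448 without a filter. The ratio of Kat6b ranged from 4.03 with replicates 5 and 6 alone to 5.02 in litter 844, and from 4.40 to 4.96 with 1 library left out.

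Of the 71 named genes that were called, 70 were called with RLE factors, 70 without replicates 5 and 6, 71 in litter 844, 71 with the replicate block, 71 with DESeq2, 69 without a filter and 10 with the 8 libraries only. None was called with litter as a covariate or with near-identical libraries summed, 2 without either wild type, and 28, 29 and 35 without transgenic replicates 1, 2 and 3. Among named genes that were not called, the log2 fold change of Rpl29 turned to -0.24 without replicates 5 and 6, -0.57 in litter 844, -0.61 with litter as a covariate and -0.59 with the replicate block, and that of Rps2 to -0.25, -0.24 and -0.25 under the last 3 of these. Rpl21 turned to 0.43 with replicates 5 and 6 alone. Slc1a3 went to 0 with RLE factors, to -7e-04 with 8 libraries, to -0.011 with libraries summed and lay between -0.028 and 0.030 with 1 library left out. Apoe went to 0.28 with replicates 5 and 6 alone and lay between -0.12 and 0.11 with 1 library left out. The causes were not tested. Genes under about 1 CPM rest on few reads in these libraries.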
